A study of Mus musculus with 6 samples.

Results

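Kinesins are motor proteins that walk along microtubules or take their ends apart. The genes described here are those whose symbol is Kif or Kifc followed by a number, and whose mean read count in the deposited table was above 0. They number 40 of the 25239 genes listed, of which 18446 had a mean above 0. A further 2 such symbols, Kif12 and Kif2b, were listed at 0. The 40 genes were ordered by known role into 13 mitotic kinesins, 12 axonal transport kinesins, 5 other vesicle and dendritic transport kinesins, 6 cilium and centriole kinesins and 4 others. The groups share no gene, also where a gene is known for several roles, so the grouping is partly a choice.

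The embryonic cortex holds both uses of the family in 1 tissue. Dividing progenitors at the ventricle use mitotic kinesins to build the spindle, move chromosomes and cut daughter cells apart, and these genes are transcribed mainly in G2 and M phase. Postmitotic neurons use transport kinesins to carry vesicles, mitochondria and receptors from the cell body into growing axons and dendrites.

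Electroporation in utero was done on C57BL/6J mouse embryos at E13.5, and polyadenylated RNA was prepared from cortex at E15.5. The labels give 3 libraries that carried the Ccnd2 Thr280Ala change, labelled MPPH and introduced by Breasi CRISPR, and 3 libraries that received GFP only. Both groups carry the genotype label Wildtype, and no group was edited without the variant, so what editing did and what the variant did cannot be told apart. Nothing in the labels states that replicate libraries came from different embryos, and p-values then measure only the spread between these libraries, which may be technical. A library is RNA of whole tissue, in which edited cells, unedited cells and cells of all types are mixed, and fewer cells of a type and less RNA per cell cannot be told apart.

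The deposited table holds 1 comparison and does not say which group is its numerator. Values in single libraries were worked back from it. Positive fold changes belong to 1 set of 3 libraries, called the positive side here, and negative ones to the other set, called the negative side. On each side the libraries carry the numbers 1 to 3, the one with the highest size factor first, and neither a side nor a library was matched to a label. The recovered reads came to 22621644, 21375799 and 19222633 in the positive libraries, against 23701843, 21660057 and 18018606 in the negative libraries. Over all genes, 25 of 18446 (0.136%) had an adjusted p under 0.05 in the authors' deposited table. For Ccnd2, the targeted gene, the log2 fold change was 0.41 (standard error 0.29, DESeq2 adjusted p = 1.00) in the authors' deposited table, which does not check the labels, since a single amino acid was changed. Markers of the neighbouring cell types were all measured. The summed normalised reads of 10 meninges and fibroblast markers were 8377, 10892 and 1350 on the positive side, against 1205, 1034 and 1186 on the negative side, so that positive libraries 1 and 2 stood apart. The sums of 12 of 14 ventral progenitor and interneuron markers were 7858, 9129 and 6007 on the positive side, against 13563, 8609 and 12464 on the negative side.

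The promoters of the mitotic and transport genes show what the mitotic group shares in sequence. Genes of G2 and M phase are known to carry a cell cycle genes homology region (CHR), whose core letters are TTTGAA, just before the start of transcription, often with a CCAAT box upstream. The RefSeq promoter table of GRCm38.p6, which holds 250 bases before to 50 bases after each start, has an entry for 31 of the 40 genes. Windows of 90 bases are printed for 5 mitotic kinesins with the CHR letters near the start, and for Kif1c and Kif5c, which carry neither motif in their entries. Capitals mark the CHR letters (TTTGAA, or TTCAAA on the other strand) and the CCAAT box (CCAAT, or ATTGG on the other strand). The sequences run 5′ to 3′ in the direction of the gene.
Kif11, chr19:37376292-37376381, plus strand: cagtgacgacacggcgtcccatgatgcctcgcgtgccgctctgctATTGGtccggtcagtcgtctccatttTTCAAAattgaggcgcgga
Kif22, chr7:127042421-127042510, minus strand: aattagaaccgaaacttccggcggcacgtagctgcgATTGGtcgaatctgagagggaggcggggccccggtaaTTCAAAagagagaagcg
Kif15, chr9:122950991-122951080, plus strand: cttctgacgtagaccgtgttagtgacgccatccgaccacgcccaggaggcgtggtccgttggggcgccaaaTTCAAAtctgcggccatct
Kif18b, chr11:102925110-102925199, minus strand: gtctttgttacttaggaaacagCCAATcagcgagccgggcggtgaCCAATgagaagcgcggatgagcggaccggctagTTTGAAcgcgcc
Kif23, chr9:61946785-61946874, minus strand: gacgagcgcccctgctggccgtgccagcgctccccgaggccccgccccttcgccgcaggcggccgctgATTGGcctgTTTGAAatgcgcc
Kif1c, chr11:70700458-70700547, plus strand: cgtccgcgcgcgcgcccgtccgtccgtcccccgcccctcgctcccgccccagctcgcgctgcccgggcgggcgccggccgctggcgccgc
Kif5c, chr2:49619196-49619285, plus strand: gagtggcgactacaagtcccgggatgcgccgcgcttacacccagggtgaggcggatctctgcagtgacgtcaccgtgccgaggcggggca

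Read on both strands, TTTGAA stood in the promoters of 11 of the 12 mitotic kinesins with an entry, and only Kif18a lacked it in this window. Of all 32851 starts in the table, 17.9% held it. A kinesin gene was counted if any of its starts held the letters, while the shares of all starts count each start singly. The near-identical copies Kifc1 and Kifc5b were counted as separate genes. Within 30 bases before to 40 bases after the start, a range picked after the positions had been seen, 9 of the 12 mitotic kinesins held the letters, against 3.59% of all starts. The printed letters begin 19 bases before the start in Kif11 and Kif15, 17 before it in Kif22, and at bases 4 and 3 after it in Kif18b and Kif23. In Kif14 and Kif2c the letters lie farther upstream, from 228 and 103 bases before the start. CCAAT was found in 8 of the 12 mitotic kinesins, against 37.4% of all starts, and it overlapped TTTGAA in none of the kinesin promoters. The axonal transport kinesins held TTTGAA in 1 of 7 entries, Kif1a, and CCAAT in 3 of 7, namely Kif1b, Kif3a and Kif3b. The 4 other transport kinesins with an entry held neither motif. Among the cilium and centriole kinesins, Kif27 held TTTGAA and 3 of 5 held CCAAT. Of the 3 other kinesins with an entry, Kif26b held both, with TTTGAA from 9 bases before the start. A match is a description of these letters and shows no binding.

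**Figure D1:**
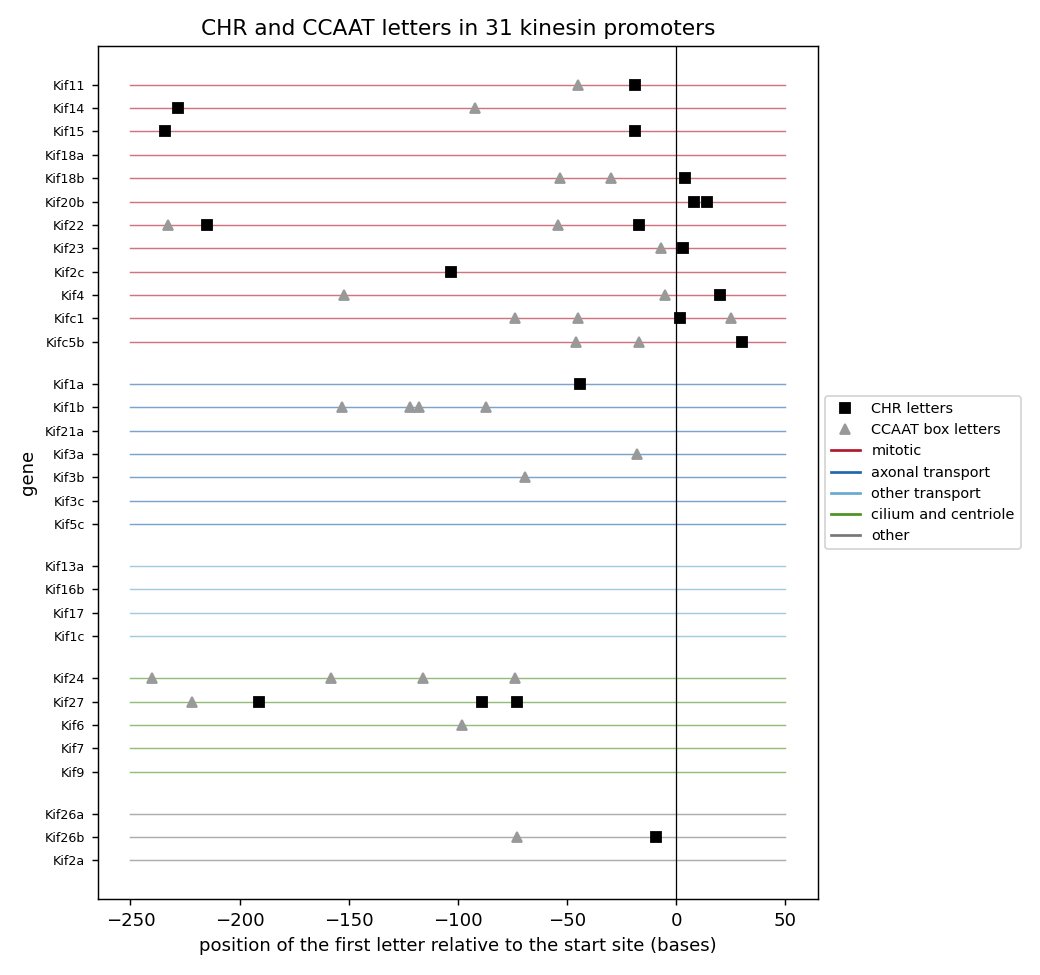
Position of the CHR letters (squares) and CCAAT box letters (triangles) in the RefSeq promoters of 31 kinesin genes, on an axis of bases relative to the start site, with 1 line per gene coloured by role. Squares cluster within 30 bases before to 40 bases after the start in 9 of the 12 mitotic genes, and 1 of the 7 axonal transport genes has a square.

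The level of the kinesins in this cortex was led by the transport genes. Per kilobase of annotated exons, the deposited base mean of the 12 axonal transport kinesins ran from 58.4 to 2782 with a median of 926, and that of the 13 mitotic kinesins ran from 25.9 to 221 with a median of 137. Kif21b, a neuronal kinesin that slows microtubule growth, had the highest level of all at 2782 per kb. Kif5c, a heavy chain of conventional kinesin that is enriched in neurons, stood at 2417, Kif1a, the carrier of synaptic vesicle precursors, at 1980, and Kif26a, an atypical kinesin held to lack motor activity, at 1313 per kb. Among conventional kinesin heavy chains, Kif5c exceeded the neuronal Kif5a at 921 and the widely expressed Kif5b at 602 per kb. The heterotrimeric kinesin-2 genes stood at 1171 for Kif3a, 1091 for Kif3c and 354 for Kif3b per kb, where Kif3a is the common partner of Kif3b or Kif3c.

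The mitotic kinesins form a narrower group. Kif22, a chromokinesin that pushes chromosome arms outward, stood at 221 per kb and Kif11, the motor that slides antiparallel spindle microtubules apart, at 213 per kb, while Kif18a, which damps chromosome movements at the plate, stood at 25.9 per kb. The cilium and centriole kinesins were low, from 2.69 per kb for Kif6 to 84.9 per kb for Kif7, a regulator of Hedgehog signalling at the cilium tip. Kif17, known in mouse neurons for carrying NMDA receptor subunits into dendrites, stood at 2.49 per kb. Of the summed level per kb of the 39 kinesins with recovered reads, the mitotic group held 11.3, 8.88 and 11.8% in the positive libraries, against 12.5, 12.1 and 9.94% in the negative libraries, so the sides overlapped. The axonal transport group held 71.6, 75.9 and 71.0% in the positive libraries, against 71.1, 71.5 and 73.7% in the negative libraries, which also overlapped. These shares leave out Kif21b, the kinesin of highest level, because its reads were not recovered. Counting it would raise the axonal transport shares and lower those of the other groups.

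**Figure D2:**
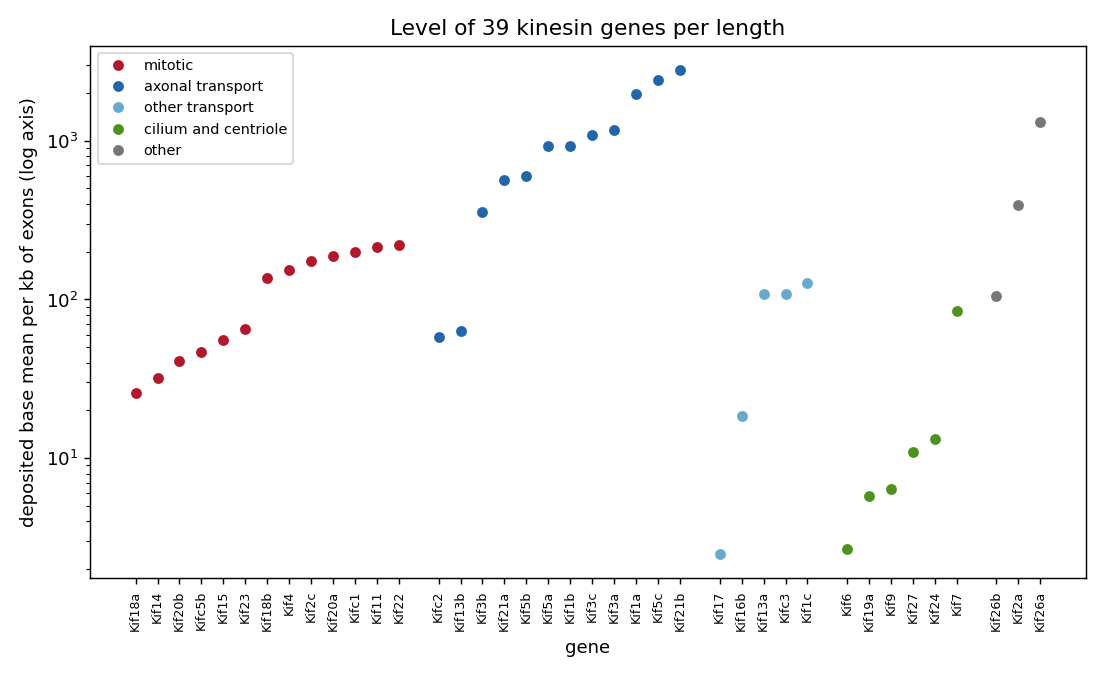
Deposited base mean per kb of exons for the 39 kinesin genes with a base mean of at least 10, on a log axis, 1 point per gene, ordered by level within each role. The 3 highest points, Kif21b, Kif5c and Kif1a at 2782, 2417 and 1980 per kb, are axonal transport kinesins, and the highest mitotic kinesin, Kif22, stands at 221 per kb.

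No kinesin gene passed the test between the sides. In the authors' deposited table, 0 of the 40 had an adjusted p under 0.05 by DESeq2, against 0.136% of all genes. At an unadjusted p under 0.05 there was 1 of 40 (2.5%), Kif1c, against 3.96% of all genes, and limma on the recovered reads gave 1 of them an unadjusted p under 0.05, where 4.58% of all genes had one. limma gave an adjusted p under 0.05 to 0 of 13873 genes, so its 0 among kinesins carries no information about them. The fold change of 9 kinesins was positive and that of 31 negative in the authors' deposited table, with a median of -0.087 on the log2 scale, where 51.2% of all genes were negative and their median was -0.0044. The recovered reads put 38 kinesins at a mean of at least 10, and the sides did not overlap for 2 of them, Kif1c and Kifc2, against 9.13% of all such genes. In both the positive side lay above, as for 4.98% of those genes.

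**Figure D3:**
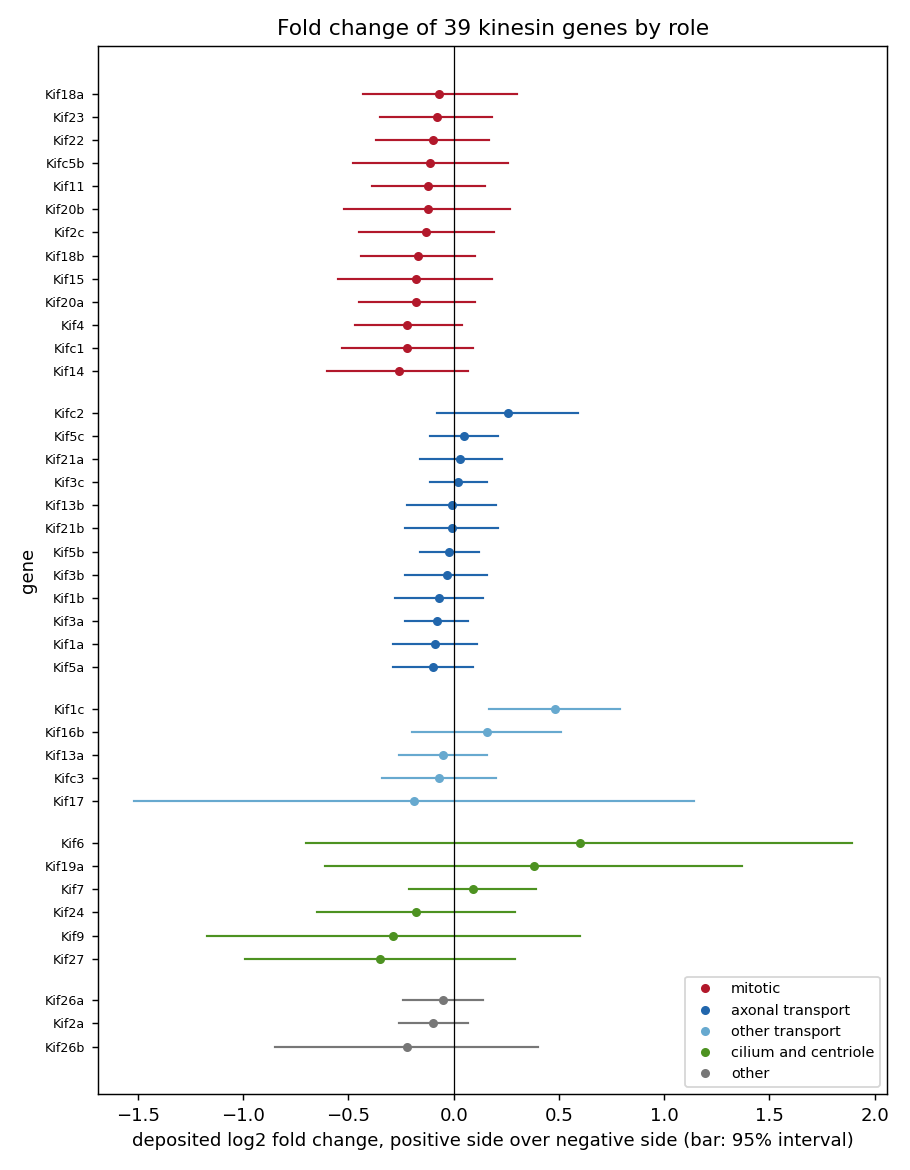
Log2 fold change of the positive side over the negative side for the 39 kinesin genes with a base mean of at least 10, as given in the authors' deposited table, with 95% intervals from its standard errors as bars and roles as colours. All 13 mitotic kinesins lie left of 0 with intervals that span 0, the 12 axonal transport kinesins lie on both sides of 0, and Kif1c is the 1 gene whose interval does not span 0.

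The 13 mitotic kinesins all had a negative fold change and none passed the test. The median of their log2 values was -0.13 in the authors' deposited table, with a range of -0.26 for Kif14 to -0.07 for Kif18a and standard errors of 0.13 to 0.20. All 13 intervals span 0, and the lowest unadjusted p was 0.099, for Kif4. The libraries of the positive and negative sides overlapped for all 13 genes, where 9.13% of all genes with a mean of at least 10 did not overlap.

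Among the spindle and chromosome motors, Kif4 had the smallest p. This chromokinesin (chrX:100625737-100727214, plus strand, GRCm38, overlapping 832 bp of the opposite-strand gene Pdzd11) organises the central spindle. Its normalised reads were 761, 719 and 866 in the positive libraries, against 1041, 875 and 805 in the negative libraries. Positive library 3 lay above negative library 3, so the sides overlapped, with means of 782 ± 75.6 and 907 ± 121 (SD, n = 3 each; exact permutation p = 0.2, two-sided, where 0.1 is the smallest that 3 against 3 can give). The authors' deposited table gave Kif4 a log2 fold change of -0.22 (standard error 0.13, DESeq2 adjusted p = 1.00).

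Kif11 (chr19:37376403-37421859, plus strand) had 1472, 1331 and 1766 normalised reads in the positive libraries, against 1834, 1722 and 1395 in the negative libraries. Positive library 3 was above 2 of the negative libraries, and negative library 3 was below 2 of the positive ones. Kif15, which backs up Kif11 in keeping the spindle bipolar, had 552, 444 and 729 normalised reads in the positive libraries, against 741, 647 and 566 in the negative libraries. As for Kif11, positive library 2 was lowest and negative library 1 highest, and the sides overlapped. Kif22 had 1106, 879 and 1166 normalised reads in the positive libraries, against 1249, 1134 and 981 in the negative libraries. Again the lowest library was positive 2 and the highest negative 1.

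Kif2c, which takes microtubule ends apart at centromeres, had 716, 613 and 853 normalised reads in the positive libraries, against 929, 786 and 661 in the negative libraries. Kif18a had 258, 220 and 269 normalised reads in the positive libraries, against 279, 295 and 205 in the negative libraries, and was the 1 mitotic kinesin with its lowest value in negative library 3 and not in positive library 2. Kif18b, which acts on astral microtubules, had 464, 402 and 519 normalised reads in the positive libraries, against 541, 533 and 483 in the negative libraries. All 3 genes had overlapping sides, and their unadjusted p-values were 0.44, 0.73 and 0.21 in the authors' deposited table by DESeq2.

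Kifc1, a minus-end directed motor that focuses spindle poles, had 637, 508 and 730 normalised reads in the positive libraries, against 809, 743 and 628 in the negative libraries. Its near-identical copy Kifc5b had 160, 148 and 194 normalised reads in the positive libraries, against 191, 177 and 173 in the negative libraries. The 2 genes lie apart on chromosome 17 (chr17:33875659-33890661, minus strand, and chr17:26917091-26932583, plus strand), and how the authors' counting divided reads between the copies is uncertain. Positive library 2 was lowest in both, and the sides overlapped.

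The cytokinesis kinesins shared their lowest and highest library. Kif14, a partner of citron kinase at the midbody, had 293, 256 and 355 normalised reads in the positive libraries, against 402, 363 and 318 in the negative libraries. Its log2 fold change, the most negative of the mitotic kinesins, was -0.26 (standard error 0.17, DESeq2 adjusted p = 1.00) in the authors' deposited table. Positive library 3 lay above negative library 3, so its sides overlapped. Kif20a, which brings the chromosomal passenger complex to the central spindle, had 771, 670 and 852 normalised reads in the positive libraries, against 935, 926 and 727 in the negative libraries. Kif20a shares 1271 bp with Cdc23 on the opposite strand, so reads of the pair cannot be told apart where the counting ignored strand. Kif20b, needed for abscission of cortical progenitors in mice, had 272, 226 and 324 normalised reads in the positive libraries, against 363, 277 and 251 in the negative libraries. Kif23, the motor of the centralspindlin complex, had 495, 447 and 559 normalised reads in the positive libraries, against 578, 525 and 486 in the negative libraries. All 4 had overlapping sides, and in each of them positive library 2 was lowest and negative library 1 highest.

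The mitotic kinesins moved together from library to library, and the size of their median depended on single libraries. Positive library 2 was the lowest of the 6 for 12 of the 13 mitotic kinesins, where it was lowest for 24.4% of all genes with a mean of at least 50. Negative library 1 was the highest for 11 of the 13, where it was highest for 14.9% of those genes. Positive library 3 was above negative library 3 for 13 of the 13 mitotic kinesins, against the direction of the fold change. The shared number does not make these libraries a pair. Positive library 3 was above negative library 2 for 7 of the 13 and below it for 6, and positive library 2 was below negative library 3 for 12. The summed normalised reads of the 13 genes were 7957, 6864 and 9180 in the positive libraries, against 9893, 9003 and 7679 in the negative libraries, and these overlapped. Without positive library 2, the median log2 ratio of side means was -0.027 and 10 of 13 genes were negative, where all libraries gave -0.124. Without negative library 1 the median was -0.065 and 11 genes were negative. Leaving out positive library 3 gave -0.254, and leaving out negative library 3 gave -0.225. Without positive library 3, limma gave 6 kinesins an unadjusted p under 0.05, among them the mitotic Kif14, Kif15, Kif18b, Kif4 and Kifc1, with adjusted p-values of 0.43 to 0.55, where 8.82% of all genes had such a p in that fit. Without negative library 3, limma gave Kif20a an unadjusted p of 0.033 and Kif4 one of 0.038, both with an adjusted p of 1, where 3.89% of all genes had such a p.

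Axonal transport kinesins had fold changes closer to 0, on either side of it. Of the 12, 4 were positive and 8 negative in the authors' deposited table, with a median of -0.017 on the log2 scale, a range of -0.10 for Kif5a to 0.26 for Kifc2 and standard errors of 0.07 to 0.17. All 12 intervals span 0. No test of the difference between the mitotic and the transport group was made, since the groups were chosen with earlier results known.

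Conventional kinesin heavy chains were close between the sides. Kif5a had 6004, 6704 and 5926 normalised reads in the positive libraries, against 6345, 6178 and 7470 in the negative libraries. Kif5b had 4555, 4936 and 4819 normalised reads in the positive libraries, against 5063, 4873 and 4604 in the negative libraries. Kif5c had 16196, 19186 and 17360 normalised reads in the positive libraries, against 17490, 17118 and 16206 in the negative libraries. Their sides overlapped, and the 95% interval of the log2 fold change ran from -0.29 to 0.09 for Kif5a, from -0.16 to 0.12 for Kif5b and from -0.11 to 0.21 for Kif5c in the authors' deposited table.

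Of the vesicle carriers, Kif1a had 16119, 19479 and 18126 normalised reads in the positive libraries, against 19235, 17004 and 20899 in the negative libraries. Kif1b, whose isoforms carry mitochondria and synaptic vesicle precursors, had 13790, 18242 and 15941 normalised reads in the positive libraries, against 17726, 15913 and 16755 in the negative libraries. Positive library 1 was the lowest of the 6 for both genes and for 7 of the 11 axonal transport kinesins with recovered reads. Over all genes with a mean of at least 50, that library was lowest for 18%. Kif13b, a carrier of signalling cargo in neurons, had 739, 856 and 870 normalised reads in the positive libraries, against 846, 820 and 816 in the negative libraries, with positive library 1 again lowest.

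In the kinesin-2 family, Kif3a had 3814, 4263 and 4180 normalised reads in the positive libraries, against 4393, 4094 and 4460 in the negative libraries. Kif3b had 1885, 2124 and 1911 normalised reads in the positive libraries, against 1939, 1892 and 2231 in the negative libraries. Kif3c, which shares 2617 bp with an opposite-strand gene, had 7765, 8526 and 8150 normalised reads in the positive libraries, against 7855, 7727 and 8445 in the negative libraries. The sides overlapped for all 3, and Kif3c had one of the narrowest intervals of all kinesins, from -0.11 to 0.16 on the log2 scale in the authors' deposited table. Kif21a, the relative of Kif21b that acts at growing microtubule ends, had 3566, 3424 and 4175 normalised reads in the positive libraries, against 3773, 3801 and 3351 in the negative libraries. Reads of Kif21b were not resolved to 1 set, and its log2 fold change was -0.01 with a standard error of 0.11 in the authors' deposited table.

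Kifc2, a minus-end directed motor of neurons, was the axonal transport kinesin with the largest fold change. It had 230, 287 and 233 normalised reads in the positive libraries, against 193, 208 and 227 in the negative libraries. The sides did not overlap, although positive library 1 at 230 and negative library 3 at 227 lay next to each other, and the side means were 250 ± 32.0 and 210 ± 17.0 (SD, n = 3 each; exact permutation p = 0.1, two-sided, the smallest that 3 against 3 can give). Its log2 fold change was 0.26 (standard error 0.17, DESeq2 unadjusted p = 0.14 and adjusted p = 1.00) in the authors' deposited table.

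The summed normalised reads of the 11 axonal transport kinesins were 74664, 88027 and 81692 in the positive libraries, against 84859, 79629 and 85463 in the negative libraries. Positive library 2, lowest for the mitotic group, had the highest transport sum. Over these genes the log2 deviation from each gene's own mean averaged -0.11, 0.09 and 0.01 in the positive libraries, against 0.01, -0.04 and 0.04 in the negative libraries. Over the 13 mitotic genes it averaged -0.07, -0.29 and 0.14 in the positive libraries, against 0.24, 0.10 and -0.12 in the negative libraries. The mitotic minus the transport average was therefore 0.03, -0.38 and 0.13 in the positive libraries, against 0.23, 0.14 and -0.16 in the negative libraries, and the sides overlapped. The transport median of -0.023 from side means moved between -0.052 and 0.025 as single libraries were left out, with 4 to 9 of the 11 genes negative. The square root of the dispersion that gives the deposited standard error, a coefficient of variation beyond counting error, had a median of 12.9% over the mitotic and 8.07% over the axonal transport kinesins. The groups also differ in level. Divided by the median standard error of the 200 genes of nearest mean, the mitotic standard errors ran from 0.95 for Kifc5b to 1.56 for Kif15. Those of the axonal transport kinesins ran from 0.88 for Kif5b to 1.47 for Kif21b, so the groups overlapped.

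**Figure D4:**
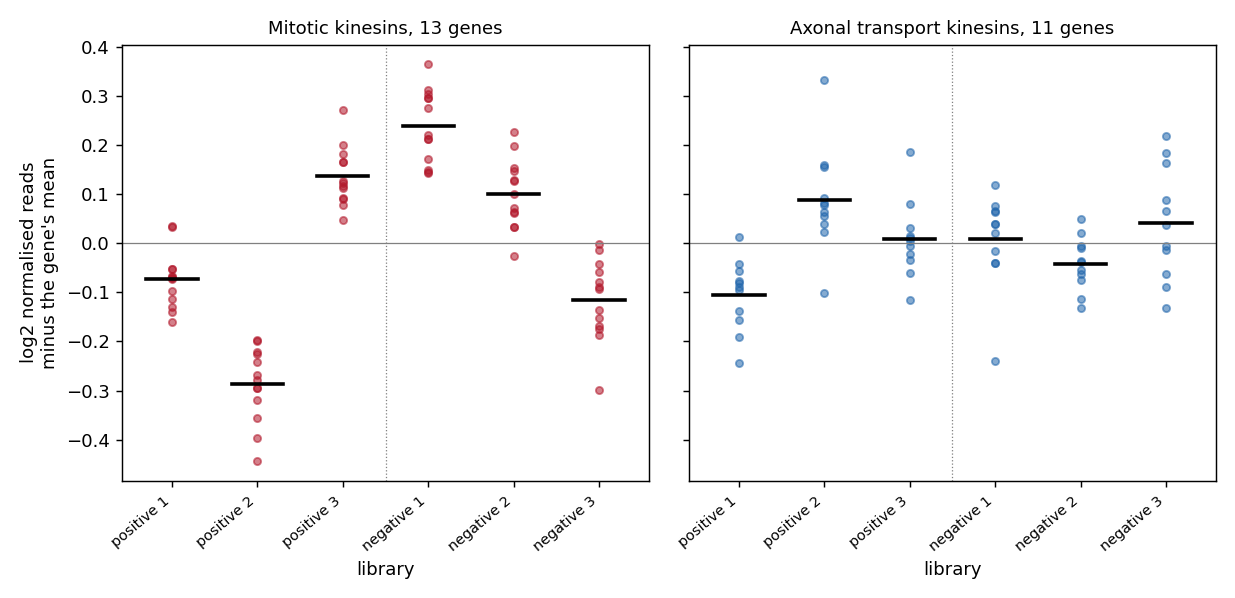
Log2 normalised reads of each mitotic kinesin (left panel, 13 genes) and each axonal transport kinesin with recovered reads (right panel, 11 genes) minus the gene's mean over the 6 libraries, by library, with 1 point per gene and the average as a black line. The mitotic genes shift together, lowest in positive library 2 at an average of -0.29 and highest in negative library 1 at 0.24, while the transport averages lie between -0.11 and 0.09.

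Among the other vesicle and dendritic transport kinesins, 2 fold changes were positive and 3 negative, and Kif1c was the kinesin with the smallest p of all 40. Kif1c (chr11:70700548-70731964, plus strand, GRCm38) carries vesicles between Golgi and cell periphery and integrins to adhesions. It had 1119, 1283 and 835 normalised reads in the positive libraries, against 787, 826 and 703 in the negative libraries. The positive side lay above the negative side in every library, with 835 in positive library 3 next to 826 in negative library 2. The side means were 1079 ± 227 and 772 ± 62.9 (SD, n = 3 each; exact permutation p = 0.1, two-sided, the smallest that 3 against 3 can give). Its log2 fold change in the authors' deposited table was 0.48 (standard error 0.16, interval 0.17 to 0.79), and with a DESeq2 unadjusted p of 0.0021 and adjusted p of 0.28 it did not pass the test. limma gave it an unadjusted p of 0.015 and an adjusted p of 1.00.

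Kif1c was high in the same 2 positive libraries in which the meninges and fibroblast markers were high. All 10 of those markers had positive fold changes in the authors' deposited table, with a median of 3.76 on the log2 scale, and 4 of them passed the test, where 0.136% of all genes did. Positive library 3 had a marker sum of 1350, against 1034 to 1205 in the negative libraries, and a Kif1c value of 835, against 826 in negative library 2. With all libraries, limma gave Kif1c a log2 difference of 0.46. Without positive library 3 the limma difference was 0.64 with an adjusted p of 0.064, in a fit that gave 67 of 13873 genes an adjusted p under 0.05. Without positive library 2 the limma difference was 0.33 with an adjusted p of 0.89. Without positive library 1, the other library with high markers, it was 0.43 with a limma unadjusted p of 0.049. Over the 6 limma fits that each left out 1 library, the unadjusted p of Kif1c ran from 0.00039 to 0.052. The part of these cells in the Kif1c difference was not tested.

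**Figure D5:**
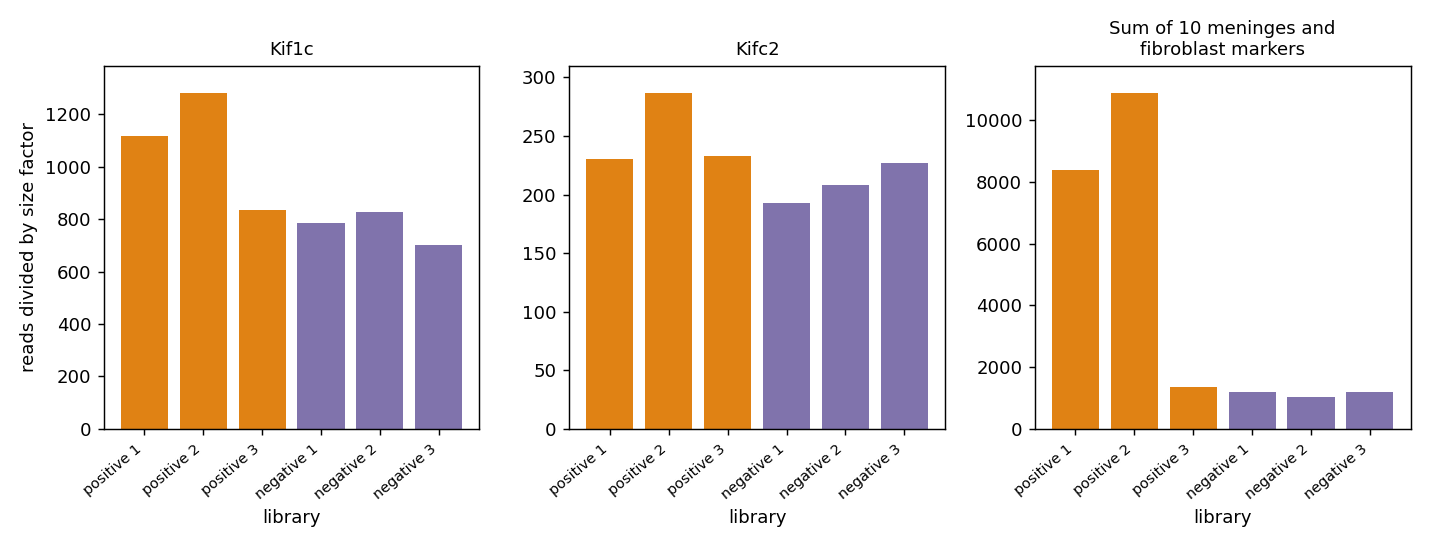
Normalised reads (reads divided by size factor) of Kif1c and Kifc2 and the sum over 10 meninges and fibroblast markers in the 3 positive (orange) and 3 negative (purple) libraries, 1 bar per library, on axes that start at 0. Kif1c and the marker sum are both highest in positive libraries 2 and 1, at 1283 and 1119 reads for Kif1c and 10892 and 8377 for the markers, while Kifc2 is close in positive libraries 1 and 3, at 230 and 233 reads.

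The rest of this group overlapped between the sides. Kif16b, which moves early endosomes, had 169, 165 and 196 normalised reads in the positive libraries, against 157, 166 and 152 in the negative libraries. Kif13a, a carrier of endosomal cargo, had 869, 858 and 865 normalised reads in the positive libraries, against 987, 882 and 810 in the negative libraries. Kifc3, a minus-end directed motor at cell junctions, had 580, 563 and 549 normalised reads in the positive libraries, against 607, 496 and 677 in the negative libraries. Kif17 had 7, 16 and 9 reads in the positive libraries, against 13, 10 and 13 in the negative libraries, and at this depth its interval ran from -1.52 to 1.14 on the log2 scale in the authors' deposited table.

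Cilium and centriole kinesins were 3 positive and 3 negative, with a median of -0.043 on the log2 scale in the authors' deposited table. Kif7 (sharing 877 bp with an opposite-strand gene) had 368, 387 and 451 normalised reads in the positive libraries, against 363, 428 and 337 in the negative libraries. Kif24, which acts on centriolar microtubules to hold back cilium assembly, had 113, 87 and 103 reads in the positive libraries, against 123, 135 and 85 in the negative libraries. The sides overlapped for both genes.

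Genes known from motile cilia were near the limit of detection. Kif6 had 25, 12 and 22 reads in the positive libraries, against 16, 20 and 4 in the negative libraries. Kif9 had 36, 16 and 24 reads in the positive libraries, against 35, 34 and 23 in the negative libraries. Kif19a, which shortens cilia by taking microtubules apart, had 39, 16 and 26 reads in the positive libraries, against 25, 23 and 14 in the negative libraries. For these 3 genes positive library 2 was the lowest of the positive libraries, the sides overlapped, and no difference was detectable at this depth. Kif27 had 48, 56 and 47 reads in the positive libraries, against 73, 49 and 67 in the negative libraries, with negative library 2 among the positive values.

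The 4 other kinesins were all negative, none past the test. Kif2a, a microtubule depolymerase that prunes axon branches, had 2250, 2593 and 2482 normalised reads in the positive libraries, against 2591, 2535 and 2702 in the negative libraries, and shares 1229 bp with Dimt1 on the opposite strand. Kif26a had 8830, 7892 and 10048 normalised reads in the positive libraries, against 9737, 9012 and 8979 in the negative libraries. Kif26b, the paralogue of Kif26a, had 1233, 1355 and 1691 normalised reads in the positive libraries, against 1401, 1261 and 2331 in the negative libraries. Its negative library 3 was above the other 5 libraries, and its standard error of 0.32 in the authors' deposited table was the widest among kinesins with a base mean above 75. Kif28 had 0, 0 and 0 reads in the positive libraries, against 3, 0 and 1 in the negative libraries, too few for a fold change.

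The molecules that kinesins work with were compared from lists of the same kind. Of 28 mitotic partners of kinesins, all 28 had a negative fold change in the authors' deposited table. Their median was -0.14 and their range -0.28 to -0.03 on the log2 scale. By DESeq2 0 of the 28 passed the test, where 0.136% of all genes did. Among them 1 had a DESeq2 unadjusted p under 0.05 on the negative side, where 1.19% of all genes did. This was Top2a, which untangles chromosomes, with a DESeq2 unadjusted p of 0.038 in the authors' deposited table. Mki67, which coats mitotic chromosomes, and Cenpe, itself a kinesin of the kinetochore outside the symbol rule, had log2 fold changes of -0.28 and -0.22 with DESeq2 adjusted p-values of 1.00 in the authors' deposited table. The summed normalised reads of the 28 partners were 38021, 34804 and 46650 in the positive libraries, against 48942, 43659 and 38914 in the negative libraries. Positive library 2 was lowest and negative library 1 highest, the same order as for the mitotic kinesin sum at these 2 places. The sides overlapped for all 28 genes, where 9.13% of all genes with a mean of at least 10 did not overlap.

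Progenitor markers differed in direction by list. Of 8 radial glia markers 6 were positive, with a median of 0.047 on the log2 scale in the authors' deposited table. The 1 with an unadjusted p under 0.05 was negative, Sox2, a transcription factor of neural progenitors, at -0.33 (DESeq2 unadjusted p = 0.00087, adjusted p = 0.20) in the authors' deposited table. On the negative side, 1.19% of all genes had an unadjusted p under 0.05. The summed normalised reads of the 8 were 44561, 47952 and 44073 in the positive libraries, against 45657, 47042 and 38969 in the negative libraries. Of 7 intermediate progenitor markers 5 were positive, with a median of 0.34 in the authors' deposited table and 3 at an unadjusted p under 0.05 on the positive side, where 2.77% of all genes had one. Their sums were 25677, 22809 and 30197 in the positive libraries, against 21801, 25690 and 18991 in the negative libraries. All 14 ventral progenitor and interneuron markers were negative, as the mitotic kinesins were, with a median of -1.17 on the log2 scale in the authors' deposited table. Of the 14, 11 had a DESeq2 unadjusted p under 0.05, where 1.19% of all genes had one on the negative side. The test was passed by 2 of the 14 markers, where 0.136% of all genes passed it. The sums of 12 of these 14 markers, given above, were lowest in positive library 3, where the mitotic sum was the highest of the positive side. The part of changed cell shares in the mitotic kinesin values was not tested.

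On the transport side, 21 kinesin light chains and cargo adaptors were measured. The authors' deposited table gave 8 positive and 13 negative fold changes, with a median of -0.017 on the log2 scale. By DESeq2 0 of the 21 passed the test, where 0.136% of all genes did. Trak2, which links kinesin-1 to mitochondria, had 2444, 2697 and 2246 normalised reads in the positive libraries, against 2233, 2148 and 1995 in the negative libraries, and the sides did not overlap. Its unadjusted p was 0.026, the 1 under 0.05 in the list, where 3.96% of all genes had one. Sybu (syntabulin), which joins kinesin-1 to presynaptic cargo, had 4134, 3117 and 4119 normalised reads in the positive libraries, against 4264, 4299 and 4756 in the negative libraries, and did not overlap in the other direction. The sums of the 21 genes were 92850, 97525 and 95834 in the positive libraries, against 96246, 94415 and 101142 in the negative libraries.

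Cytoplasmic dynein and dynactin, the minus-end directed machinery that works against the transport kinesins, had 12 positive and 14 negative fold changes among 26 genes. Their median was -0.013 in the authors' deposited table. By DESeq2 0 of the 26 passed the test, where 0.136% of all genes did. Dync1li2, a dynein light intermediate chain with the smallest p of the list, had 4847, 6177 and 4864 normalised reads in the positive libraries, against 4751, 4578 and 4533 in the negative libraries. Its sides did not overlap, with a log2 fold change of 0.20 and a DESeq2 unadjusted p of 0.062 in the authors' deposited table. Of the 26 genes, the positive side lay above for 2 and the negative side for 1, where 9.13% of all genes with a mean of at least 10 did not overlap. Dync1h1, the dynein heavy chain, had 9340, 14596 and 12835 normalised reads in the positive libraries, against 15967, 11911 and 15073 in the negative libraries, with positive library 1 lowest and overlapping sides. Neuron markers had 5 positive and 6 negative fold changes of 11 and a median of -0.055 in the authors' deposited table.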

How the data were processed

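RNA was measured in 6 libraries of electroporated cortex, 3 in each of 2 groups, grouped by their labels. Per the submitters' processing notes, the authors used cutadapt, featureCounts and DESeq2 with build mm10; versions, aligner, annotation and strandedness were not given in the sources used here. The single table is the authors' own comparison, with 0 columns of values per sample. Per the file headers its base mean is a signal (size-factor scaled counts averaged over libraries). Fold change and standard error were deposited on the log2 scale and the Wald statistic as a score. The authors deposited a p-value and an adjusted p-value from DESeq2 for 18446 genes.

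An adjusted p under 0.05 in the authors' deposited table counted as a call. Intervals are 95% normal intervals from the deposited standard error. The members and all lists were chosen with earlier results of these data known, so no p is given for a list. Any kinesin could be named, with Ccnd2, the 3 genes of smallest p in each pathway list and up to 2 in each marker list.

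Reads per library were worked back from the table. The 739 genes with a single read take 6 mean values, each the worth of 1 read in 1 library, which were sharpened on 2057 genes with a mean under 1. For 18420 genes with a mean of up to 40000, sets of 6 whole numbers giving the deposited mean to its 15 digits were listed. The search covered only sets near the levels fitted from the deposited values, and it ended at the first width that kept a set. Each set was fitted with a negative binomial model, at the dispersion that gives the deposited standard error. It was kept if the fit gave the deposited fold change to within 5e-14. Within this search exactly 1 set was left for 18387 genes, and for 39 of 40 kinesins. Of the 18387 genes, 1990 had a mean under 10 and were set by the mean alone. Sets outside the search were not examined. Median-of-ratios size factors computed from these reads differed from those used by at most 0.019%. The reads stand for 88.6% of the summed base means, and the tolerances were adjusted after seeing the data. Normalised reads are reads divided by these size factors (1.11, 1.02 and 0.904 on the positive side, against 1.11, 1.04 and 0.850 on the negative side).

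The recovery and the limma fit were also run on simulated data, with outcomes that are not given here. limma 3.58.1 (R 4.3.3), on log2 of normalised reads plus 0.5 with a trended variance prior, was run on 13873 genes with a mean of at least 10 and adjusted by Benjamini-Hochberg. Exon lengths and gene overlaps come from GENCODE M21 on GRCm38. Levels per kb divide the base mean by the union of annotated exons. Other work used Python 3.11.15, numpy 2.4.6, pandas 2.3.3, scipy 1.17.1, sympy 1.14.0 and numba 0.67.0. Alternatives were thresholds, minimum means, other summaries, limma and leaving out each library.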

Additional observations from a re-analysis of the deposited data

How the results depend on the processing

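The count of 0 kinesins past the adjusted threshold was kept with a minimum mean of 10, a threshold of 0.10 and an adjustment limited to a mean of 50 or more. limma also gave 0 kinesins, with all libraries and with each left out, but called 0 to 67 of all 13873 genes, so these fits say little of the kinesins. The number with an unadjusted p under 0.05 ranged from 1 to 6 with single libraries left out, with 6 without positive library 3 and 2 without negative library 3, against 1 with all libraries. The median log2 fold change of the mitotic kinesins was -0.126 and ran from -0.151 to -0.117 under other filters and summaries. As ratios of side means of the recovered reads it was -0.124, and -0.254 to -0.027 with single libraries left out (without positive library 3 and without positive library 2), negative throughout. The axonal transport median was -0.017 over 12 genes in the deposited values and -0.023 over 11 genes as ratios of side means, which ran from -0.052 to 0.025 with single libraries left out. For the 5 kinesins with a mean of 10 to 75, the number whose sides did not overlap was 0 with all libraries, with or without size factors, and ranged from 0 to 2 with single libraries left out (Kif19a and Kif6 without positive library 2, Kif9 without positive library 1, Kif27 without negative library 2), where 14.2 to 24.7% of all genes with a mean of at least 10 did not overlap. limma and the leaving out of libraries were chosen after seeing the data, except for the low kinesins. A library left out leaves 2 on its side. No paired analysis was possible because the table has no columns per sample and the recovered libraries carry no replicate number. Reads limit the low kinesins, and the unknown numerator leaves every direction without a group.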
